A study of Oryza sativa with 20 samples.

Results

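The rice genes RBP-208 and eIF-4E-1, whose products act on messenger RNA, were followed through chilling of seedling shoots. All array features that the platform's annotation and the reference names assign to these genes were taken, which gave 3 of 6080 features. RBP-208 was represented by features 427 and 3570, and eIF-4E-1 by feature 10. The genes were selected on these same log2 ratios of chilled over control shoots, so their ratios are given as a description, with no test. In the reference annotation, RBP-208 is LOC4346063 on chromosome 8 and eIF-4E-1 is LOC4323837 on chromosome 1, each with 1 RefSeq transcript and 0 overlapping genes.

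The plants were seedling shoots (S3 stage) of the japonica rice CT6748-8-CA-17, which tolerates chilling. Chilled seedlings were held at 10°C for 0.5, 2, 6, 12 or 24 h, and each time point had a control of its own, of the same age and cultivar, kept at 29°C. By the methods and labels, chilled RNA carried the Cy3 dye and control RNA the Cy5 dye on 1 slide, in 2 biological replicates per time point. They describe no dye swap, so a dye effect cannot be told apart from a chilling effect. The 10 slides held every feature in duplicate, which gave 20 spots per feature. Values below are log2 ratios, chilled against control, which measure a difference and not a level, and in whole shoots fewer cells of a type and less RNA per cell cannot be told apart.

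RNA-binding proteins accompany a transcript from splicing to translation and help to decide where it is placed and when it is read. RBP-208 is known from developing rice endosperm, where it works with other RNA-binding proteins in placing the mRNAs of storage proteins at their sites of translation. The initiation factor eIF4E binds the cap at the 5′ end of an mRNA and, with the scaffold eIF4G and the RNA helicase eIF4A, forms the complex that loads the small ribosomal subunit. Plants also have an isoform of this cap-binding complex, with its own cap-binding subunit.

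Both spot sets of replicate 2 at 2 h carried the opposite sign to the other slides and were multiplied by -1. As deposited, that slide correlated below 0 with each of the other 9 slides across features (r between -0.45 and -0.18), although the labels and methods give it the same dyes. The turned direction is the one in which the study prints its own folds for that time for most of its listed features, and it was used for that reason. Whether dyes were exchanged or the ratio was inverted is not known, and every mean at 2 h rests on this turn. The replicates of a time point correlated across features at r between 0.34 and 0.43 from 2 h on, and at r = 0.07 at 0.5 h. The median log2 ratio of a slide lay between -0.01 and 0.54, the highest being that turned slide. Setting these medians to 0 lowered the means of a time point by 0.19, 0.32, 0.01, 0.09 and 0.12, in order of time.

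Feature 427 of RBP-208 was the member with high ratios. All 19 of its measured spots were above 0, and its mean lay above the study's 1.8-fold rule, 0.85 on the log2 scale, at 0.5, 2, 6 and 12 h but not at 24 h. Feature 3570, assigned to the same gene, stayed under the rule in all 20 spots. Feature 10 of eIF-4E-1 had 8 spots above 0 and 12 below, none of them past the rule.

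**Figure D1:**
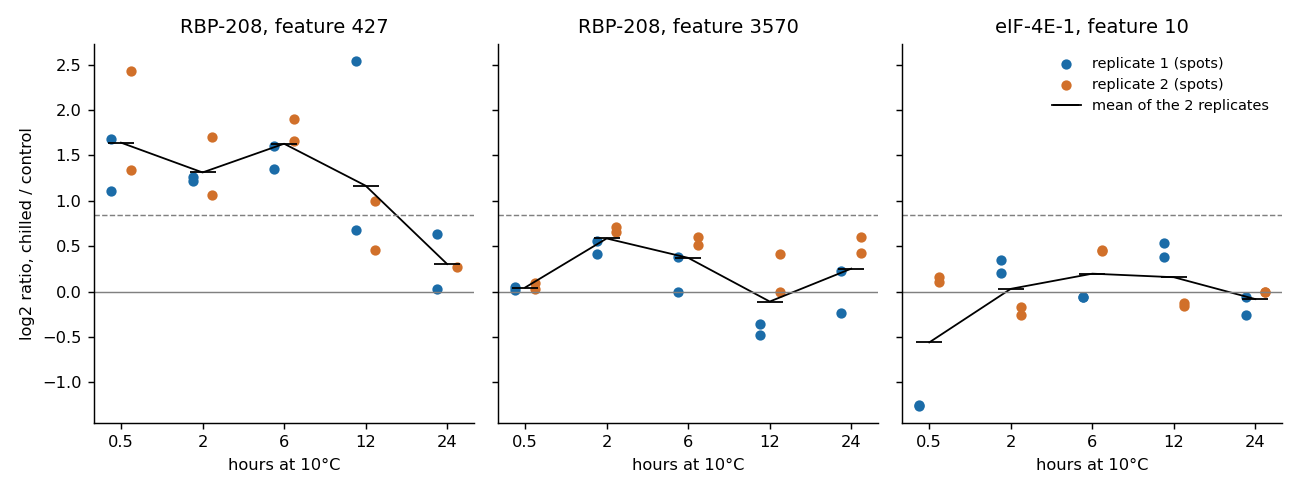
Log2 ratio of chilled over control shoots (vertical axis) against hours at 10°C (horizontal axis, evenly spaced and not to scale) for the 3 features, with each spot as a point coloured by replicate, short bars at the mean of the 2 replicates and a dashed line at 1.8-fold. Feature 427 lies above the dashed line with all 12 spots at 0.5, 2 and 6 h and falls to a mean of 0.30 at 24 h, while the spots of features 3570 and 10 stay below the line throughout.

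After 0.5 h of chilling, the spots of feature 427 were at 1.69 and 1.11 on the slide of replicate 1 and at 1.34 and 2.43 on that of replicate 2. The mean of the slides was 1.64 ± 0.35 (SD, n = 2), a 3.12-fold higher signal in chilled shoots. At this first time point 98.6% of the 6010 features measured had a lower mean. At 2 h the spots were at 1.22 and 1.27 in replicate 1 and, after turning, at 1.07 and 1.70 in replicate 2, with a mean of 1.31 ± 0.10 (SD, n = 2), or 2.48-fold. All 8 of these early spots lay above the 1.8-fold rule. With the sign as deposited, the mean at 2 h would be -0.07.

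The value at 6 h stood out most among the features of its own time point. The spots of feature 427 were then at 1.35 and 1.61 in replicate 1 and at 1.66 and 1.91 in replicate 2, and the mean was 1.63 ± 0.22 (SD, n = 2), or 3.09-fold. It ranked 26 from the top among the 6022 features measured then. For the second spot set of replicate 2, which gave the highest of the 4 spots, the source label of the chilled RNA names 0.5 h while the title names 6 h.

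At 12 h the spots spread widely. Replicate 1 gave 2.54 and 0.68 for the duplicate spots of 1 slide, and replicate 2 gave 0.99 and 0.46. The mean was 1.17 ± 0.62 (SD, n = 2), or 2.25-fold, with 2 of 4 spots at or above 1.8-fold. The mean of replicate 2, 0.73, was under the rule and that of replicate 1, 1.61, was above it.

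At 24 h feature 427 was close to its control. Its spots were at 0.03 and 0.64 in replicate 1 and at 0.27 in replicate 2, where the second spot had no value. The mean of 0.30 ± 0.04 (SD, n = 2) corresponded to 1.23-fold, and 61.2% of features had a lower one. The slides of 24 h lay below those of each of the other 4 time points without overlap, by 1.34 on average against 0.5 h and by 0.86 against 12 h. The order of the means was 0.5 h, 6 h, 2 h, 12 h and 24 h. Slides of 0.5 h and 6 h overlapped, as did those of 12 h with 0.5, 2 and 6 h, whereas the slides of 2 h lay below those of 0.5 h and 6 h, if only just (1.38 for the higher slide of 2 h and 1.40 for the lower of 0.5 h). In all, 6 of the 10 pairs of time points did not overlap. Such pairs were not counted over all features, and feature 427 was chosen on these values, so nothing is read from this number.

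The same course was counted over all features, as a description, since its terms were set by the values of feature 427 itself. A mean at or above 1.8-fold at 0.5, 2, 6 and 12 h was seen for 67 of 5926 features with a value in all samples (1.13%), and for 25 (0.42%) the mean was also under the rule at 24 h. All 12 spots at 0.5, 2 and 6 h reached 1.8-fold for 18 of the 5569 features with values there (0.32%). Feature 427 belonged to each of these groups by construction, and nothing is read from it. With the median of each slide set to 0, its means were 1.45, 0.99, 1.62, 1.08 and 0.18 from 0.5 to 24 h, and 23 features were then above the rule at the first 4 times.

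**Figure D2:**
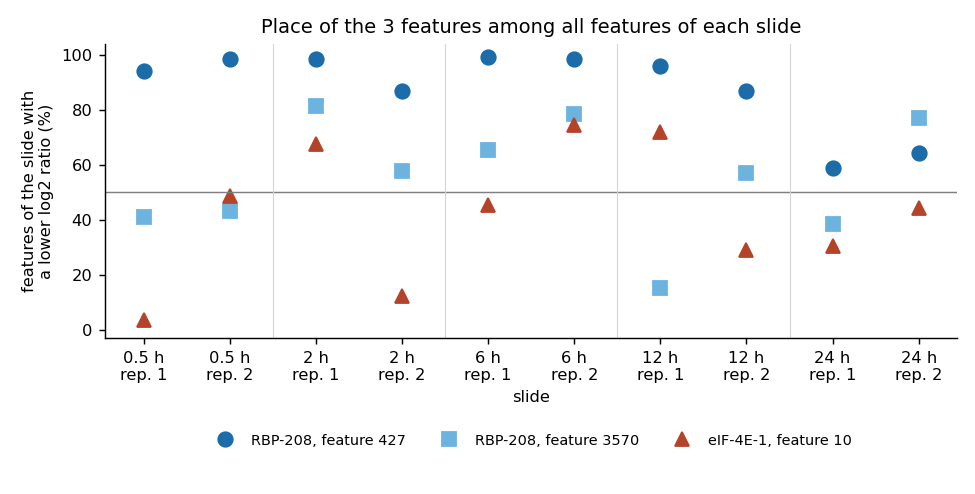
Share of the features of each slide with a lower log2 ratio, in percent (vertical axis), for features 427, 3570 and 10 on each of the 10 slides (horizontal axis, time and replicate), with a line at the slide median. Feature 427 is above 86.7% of features or more on all 8 slides from 0.5 to 12 h and at 58.7% and 64.5% at 24 h, while features 3570 and 10 change sides of the median between slides.

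Read slide by slide, feature 427 lay above the slide median on 10 of 10 slides. From 0.5 to 12 h it was above 86.7% to 99.3% of the features of its slide, with the lowest places on replicate 2 at 12 h and replicate 2 at 2 h. On 7 of 10 slides its ratio was at or above 1.8-fold, the exceptions being both slides of 24 h and replicate 2 of 12 h. With slide medians set to 0, 6 slides met the rule.

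The second feature of RBP-208 gave another course. Feature 3570 had its highest mean at 2 h, 0.59 ± 0.14 (SD, n = 2), with spots at 0.55 and 0.42 in replicate 1 and, turned, 0.72 and 0.66 in replicate 2. At 0.5 h the 4 spots lay between 0.02 and 0.09. With the 2 h slide of replicate 2 turned, the mean at 2 h was above that at 0.5 h by 0.54. The slides of these times did not overlap, but such pairs were not counted over all features, so nothing is read from it. The medians of all features were 0.13 at 0.5 h and 0.31 at 2 h. As deposited, the mean at 2 h would be -0.10. With slide medians set to 0 it was 0.27, and the mean at 0.5 h was -0.15.

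Later ratios of feature 3570 differed between replicates. At 6 h the slide values were 0.19 and 0.56 in replicates 1 and 2, at 12 h -0.42 and 0.20, and at 24 h -0.01 and 0.51. The means were 0.37 ± 0.26, -0.11 ± 0.44 and 0.25 ± 0.37 (SD, n = 2 each). Replicate 2 was the higher one on each of these occasions, and at 12 h and 24 h the 2 slides lay on opposite sides of 0. Over all 20 spots the lowest was -0.48, the median 0.30 and the highest 0.72.

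Features 427 and 3570 were set against each other on the same slides. Feature 427 was higher on 9 of 10 slides, the exception being replicate 2 at 24 h, where it was lower by 0.24. The difference was 1.36 and 1.83 in replicates 1 and 2 at 0.5 h, 0.76 and 0.70 at 2 h, and 1.29 and 1.23 at 6 h. It was 2.03 and 0.53 at 12 h and 0.34 and -0.24 at 24 h. On average the fold of feature 427 was 3.02 times that of feature 3570 at 0.5 h and 1.04 times at 24 h. As feature 427 had been chosen for its ratios, the gap was not tested.

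Their courses over the 10 slides were also unlike, with r = -0.11, or -0.07 with slide medians set to 0. Over the 331 pairs of features that the annotation assigns to 1 gene, the median r was 0.25, with quartiles of -0.15 and 0.58. Of these pairs, 26.6% had a lower r than the RBP-208 pair. The mean absolute difference of the RBP-208 pair over slides was 1.03, against a median of 0.60 over all such pairs, and 89.4% of pairs differed by less. A low correlation between features of 1 gene was thus common on these arrays. The RBP-208 pair holds a feature chosen for its high ratios, and such a choice can widen the gap. Nothing is therefore read from the place of this gap among the other pairs. Which part of the transcript each feature holds is not given in the sources used here, and what sets the features apart was not tested.

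The duplicate spots of feature 427 agreed less well than those of most features. They differed by a median of 0.58 over the 9 slides with both spots, from 0.05 at 2 h to 1.86 at 12 h, each in replicate 1. For all features the median difference was 0.19, and for feature 3570 it was 0.13. The replicates of feature 427 differed by a median of 0.31, under the 0.44 of all features.

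The cap-binding factor eIF-4E-1 stayed near its control from 2 h on. At 0.5 h feature 10 gave -1.25 on both spots of replicate 1 but 0.10 and 0.17 in replicate 2, a mean of -0.56 ± 0.98 (SD, n = 2). That first slide, at 0.42-fold, was the only one of the 10 on which it was far from 0, and it lay above only 3.59% of the features there. Replicate 2 of the same time lay above 48.6%. Without replicate 1 the mean at 0.5 h is 0.13. On the turned slide of 2 h feature 10 was at -0.22, which was above only 12.5% of the features there. With the slide median set to 0 it was at -0.76 on that slide.

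At the other times the slides of feature 10 lay between -0.22 and 0.46. The slide values were 0.28 and -0.22 in replicates 1 and 2 at 2 h, -0.06 and 0.45 at 6 h, and 0.46 and -0.14 at 12 h. At 24 h they were -0.16 and -0.01. The means were 0.03 ± 0.35, 0.20 ± 0.36, 0.16 ± 0.42 and -0.08 ± 0.11 (SD, n = 2 each). At 0.5, 2, 6 and 12 h the replicates lay on opposite sides of 0. Of the 10 pairs of time points, 0 were free of overlap. Such pairs were not counted over all features, so nothing is read from this number.

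The spread within a slide was small for this feature compared with that between replicates. Duplicate spots of feature 10 differed by a median of 0.05, and by 0.20 at most, whereas its replicates differed by a median of 0.51 and by 1.39 at 0.5 h. The same comparison for all features gave 0.19 and 0.44. The values of eIF-4E-1 were thus repeatable within a slide and differed between replicates.

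The other features of the initiation machinery give the setting for eIF-4E-1. Name patterns gave 5 features listed under initiation factors, 11 under ribosomal proteins and 3 under splicing factors of the SR type. Among the 5, OsIF1-1 was taken by its name alone. A further 12 features of other translation and RNA genes, p28, CBP20 and GOS2 among them, were added. Of the 19 features found by pattern, 0 were past limma's adjusted threshold of 0.05 in either direction at any time point. Of all 5926 features tested, 2.48%, 0.253%, 0.202%, 0.371% and 2.16% were past it from 0.5 to 24 h, and these were mostly higher, at 2.45%, 0.253%, 0.202%, 0.321% and 1.96%. The lower ones made up 0.0337% at 0.5 h, 0.0506% at 12 h, 0.202% at 24 h and 0.0% at the other times. At an unadjusted p under 0.05, 4, 2, 1, 3 and 0 of them passed from 0.5 to 24 h, against 1046, 1340, 598, 933 and 1112 of all 5926 features. The medians of the 19 were -0.31, 0.18, 0.18, 0.24 and 0.16, beside 0.13, 0.31, 0.02, 0.11 and 0.14 for all features.

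**Figure D3:**
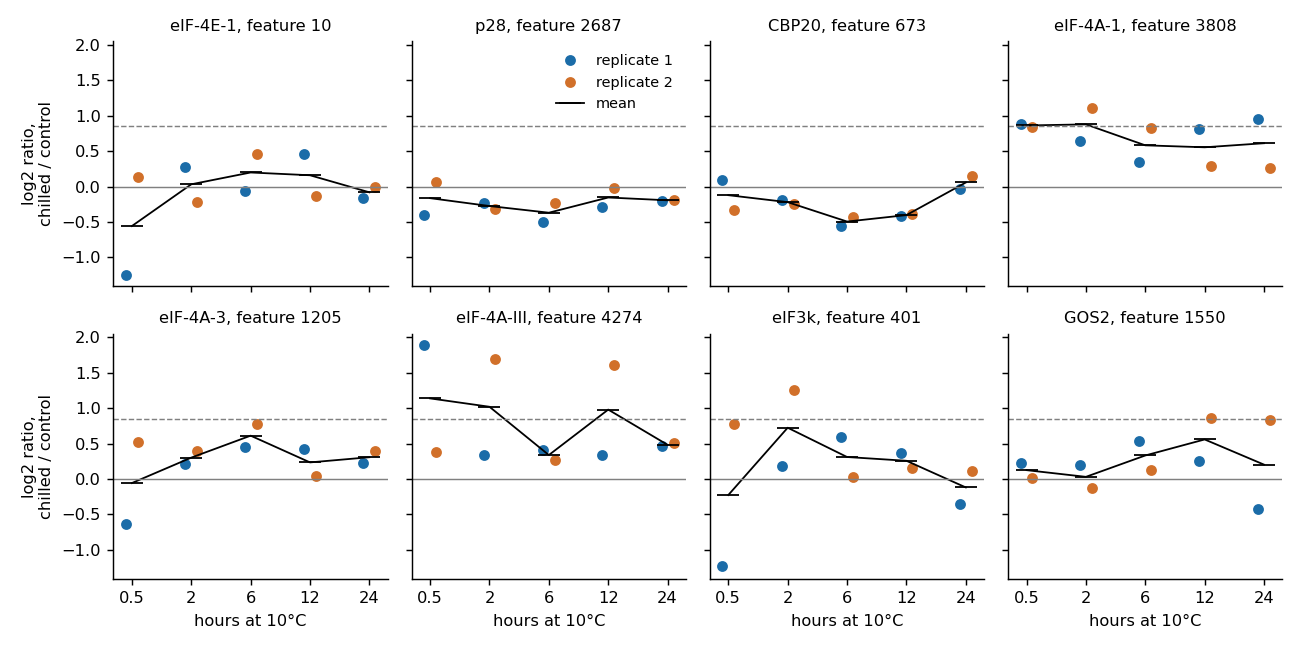
Log2 ratio of chilled over control shoots (vertical axis) against hours at 10°C (horizontal axis, evenly spaced) for eIF-4E-1 and 7 other features of cap binding and initiation, with the slides of replicates 1 and 2 as points, bars at their mean and a dashed line at 1.8-fold. The features of eIF-4A-1 and eIF-4A-III are above 0 on all 10 slides, while p28 is above 0 on 1 slide and eIF-4E-1 on 4.

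Among the helicase subunits that work beside eIF4E, eIF-4A-1 had positive ratios on 10 of 10 slides, with the 2 h slide of replicate 2 turned, and lay above the slide median on all 10. Such counts, here and for eIF-4A-III and p28 below, were not made over all features, so nothing is read from them. Among other listed features, 60SP0 (feature 3426) was also above 0 on 10 slides, and RRF was above the slide median on 0 of 10. Its slides at 0.5 h were at 0.89 and 0.84 in replicates 1 and 2, and its means were 0.86, 0.88, 0.58, 0.55 and 0.61 from 0.5 to 24 h. A further feature named for this factor, eIF-4A-3, had its highest mean at 6 h, 0.61 ± 0.23 (SD, n = 2), and its slides at 0.5 h were at -0.64 and 0.52. Neither was past limma's threshold at any time.

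The feature of eIF-4A-III, the helicase at the core of the exon junction complex that marks spliced mRNA, was also above 0 and above the slide median on 10 of 10 slides. Its mean at 0.5 h was 1.14, made up of 1.89 in replicate 1 and 0.39 in replicate 2. It was at 1.02, 0.34, 0.98 and 0.48 from 2 to 24 h, and not past the threshold at any time (lowest adjusted p from limma 0.172). Partners in that complex were OsY14a, with means of -0.23, 0.52, 0.62, 0.68 and 0.68, and MAGO2, with 0.30, 0.59, 0.36, 0.55 and 0.64.

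The other cap-binding features had low ratios. The feature of p28, the cap-binding subunit of the isoform complex, had means of -0.16, -0.28, -0.37, -0.16 and -0.19, and lay below the slide median on all 10 slides. CBP20, a subunit of the nuclear cap-binding complex, was at -0.12, -0.22, -0.50, -0.40 and 0.06. Its slides at 6 h were at -0.56 and -0.43 and those at 12 h at -0.41 and -0.39. None of these means was past the test.

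Of the remaining initiation features, eIF3k, a subunit of the factor eIF3 that binds the small ribosomal subunit, split at 0.5 h into -1.23 in replicate 1 and 0.78 in replicate 2. Its highest mean was 0.72 ± 0.76 (SD, n = 2) at 2 h. GOS2, a homologue of eIF1, which takes part in finding the start codon, had its highest mean of 0.56 at 12 h. OsIF1-1 was taken into the initiation list by its name alone, and whether it acts in initiation was not checked. It had the lowest mean of that list at 2, 6 and 12 h (-0.21, -0.56 and -0.18). Over the 5 features of the list, OsIF1-1 included, the medians were 0.02, 0.72, 0.34, 0.26 and 0.31, beside the medians of all features given above. Of the 5, 2, 2, 0, 1 and 0 were at or above 1.8-fold from 0.5 to 24 h, where 11.5%, 16.9%, 6.31%, 9.47% and 12.7% of all features were.

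Replicate 1 at 0.5 h, where eIF-4E-1 was low, also held low ratios of many ribosomal protein features. Of 37 listed features, 26 were lower in replicate 1 than in replicate 2 at 0.5 h (70.3%), against 52.2% of all 5926 features. The median difference between these replicates was -0.58 for the 37 and -0.06 for all features. Of the 11 ribosomal protein features, 10 were lower in replicate 1, where their median was -0.92, and it was -0.0045 in replicate 2. Of the 5 features found by the initiation pattern, 2 were lower in replicate 1, eIF3k (-1.23 and 0.78) and eIF-4A-3 (-0.64 and 0.52). The others were eIF-4A-1 (0.89 and 0.84), the exon junction helicase eIF-4A-III (1.89 and 0.39) and OsIF1-1 (0.10 and -0.05), listed by its name alone. The medians of the 5 were 0.10 in replicate 1 and 0.52 in replicate 2, and no contrast with the ribosomal protein features is read from so few. RPL5, a protein of the large subunit, was at -1.54 and 0.84 in replicates 1 and 2, and SC34, a splicing factor, at -1.54 and 0.04. The 2 replicates hardly correlated over all features at this time, as given above, and what sets them apart was not tested.

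Ribosomal protein features had 2 of 11 means above 0 at 0.5 h, and 7, 7, 7 and 9 at the later times. The share of all features with a mean above 0 was not counted, so no shift is read from these counts. The medians of all features were themselves above 0 at every time (0.13, 0.31, 0.02, 0.11 and 0.14). The lowest at 0.5 h was RPS27AB, a ubiquitin fusion with a protein of the small subunit, at -1.12 and -1.02 (mean -1.07, adjusted p from limma 0.0737), and the highest was 1 of the 2 features named Ip, at 0.08. At the later times the highest were the other feature named Ip at 2 h (0.60) and 6 h (0.96), RPS4 at 12 h (0.89) and CYC07 at 24 h (0.80). The lowest were RPS21 at 2 h (-0.15) and 24 h (-0.28), RPL3 at 6 h (-0.28) and RPS27AB at 12 h (-0.69). The list's medians were -0.35, 0.15, 0.15, 0.20 and 0.16, and with slide medians set to 0 they were -0.54, -0.17, 0.14, 0.11 and 0.04.

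The 3 features of SR splicing factors, which bind exons and recruit the spliceosome, were the only other RNA-binding proteins that the name patterns found. SC34 had the lowest mean of the 3 at 0.5 h (-0.75) and the highest at 2, 6, 12 and 24 h (0.25, 0.59, 0.53 and 0.67). Os-RSZ21a was highest at 0.5 h (-0.25) and lowest at 2 h (0.01) and 6 h (-0.23), and Os-RSZ23 was lowest at 12 h (-0.26) and 24 h (-0.39). None of their means was past the test.

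The study's own list of early responding genes holds 14 entries of translation and RNA binding, of which 9 were matched to a feature by their EST here. That list was drawn up on these samples, so it is no independent evidence of a direction. Of the 9, 1 had a mean above 0 at 0.5 h, 9 at 12 h and 9 at 24 h. At 12 h 5 of the 9 reached 1.8-fold, against 9.47% of all features, and at 24 h 2 of the 9, against 12.7%, with 0 past limma's threshold at any time. Elongation factor EF-1, which brings aminoacyl-tRNA to the ribosome, was at -0.59 at 0.5 h and 1.07 at 12 h, with slides of 1.59 and 0.56 at the latter. A gene with an RNA recognition motif was at -0.16, -0.24, -0.16, 0.74 and 0.90 from 0.5 to 24 h, and so was highest at 24 h, where feature 427 was lowest.

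The features whose courses over the 10 slides most resembled each member were sought among those with a gene name. Between the members themselves r was 0.19 for feature 427 and eIF-4E-1 and 0.06 for feature 3570 and eIF-4E-1, or 0.31 and 0.27 with slide medians set to 0. The correlations share the slides and their normalisation and are given as a description over 10 slides. The median r over the 702 or 703 named features compared was 0.05 for feature 427, 0.04 for feature 3570 and 0.15 for eIF-4E-1.

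**Figure D4:**
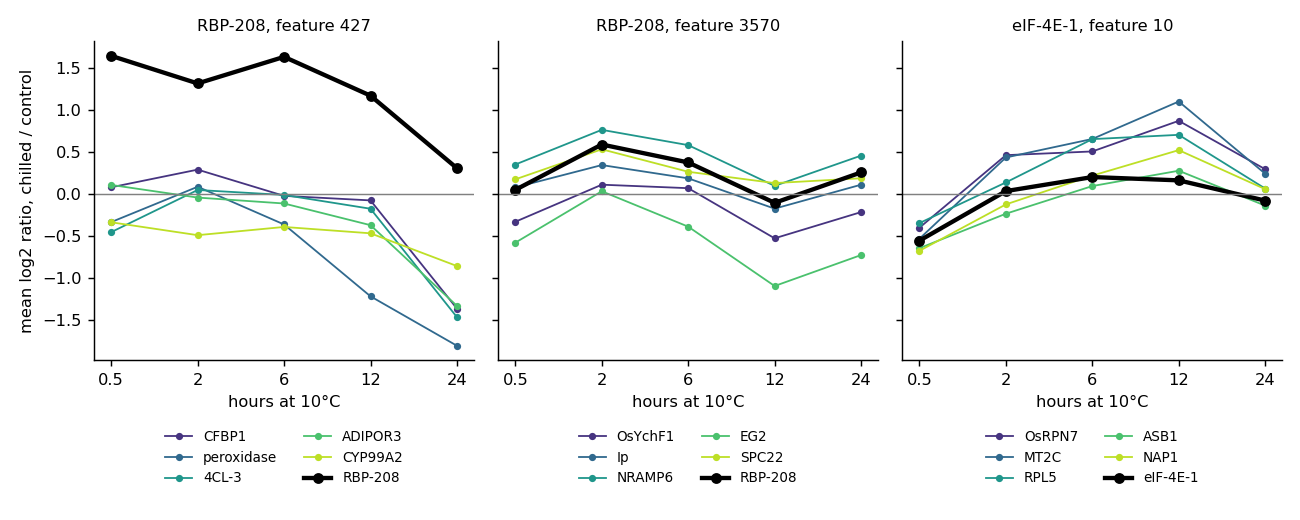
Mean log2 ratio of chilled over control shoots (vertical axis) against hours at 10°C (horizontal axis, evenly spaced) for each member feature (thick black line) and the 5 named features with the highest r to it over 10 slides (thin lines). The features most like feature 427 share its drop between 12 and 24 h but lie near or below 0 where it is high, and those most like eIF-4E-1 start below 0 at 0.5 h and are highest at 12 h, while eIF-4E-1 itself is highest at 6 h.

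For feature 427 the 5 most alike were CFBP1, the cytosolic fructose bisphosphatase of sucrose synthesis (r = 0.85), a peroxidase (0.84), the lignin precursor enzyme 4CL-3 (0.83), ADIPOR3 (0.83) and the cytochrome P450 CYP99A2 (0.81). They were alike in course and not in size. At 0.5 h the mean of CFBP1 was 0.08 against 1.64 for feature 427, and at 24 h all 5 were between -1.81 and -0.86. Without the slides of 24 h the r values dropped to between 0.34 and 0.73, so the likeness to CFBP1 (0.44) and ADIPOR3 (0.34) rests largely on that time point. All 5 were again the most alike with slide medians set to 0.

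For feature 3570 they were OsYchF1, a nucleotide-binding protein (r = 0.94), Ip (0.89), the metal transporter gene NRAMP6 (0.88), EG2 (0.85) and SPC22, named for a signal peptidase subunit (0.83). Left without the 2 slides farthest from its median, replicate 1 at 12 h and replicate 2 at 2 h, they gave r between 0.72 and 0.89. None was among the 5 most like feature 427.

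For eIF-4E-1 the r values were higher still, with OsRPN7, a subunit of the proteasome's regulatory particle, at 0.97, the metallothionein gene MT2C at 0.96, RPL5 at 0.95, ASB1 at 0.93 and NAP1 at 0.93. Without replicate 1 at 0.5 h and replicate 1 at 12 h these became 0.88, 0.77, 0.79, 0.68 and 0.67. The 11 ribosomal protein features had a median r of 0.64 with eIF-4E-1, 10 of them above 0, and a median of 0.39 without those slides. Of the initiation features, eIF-4A-3 came closest to eIF-4E-1 (r = 0.88), and eIF-4A-III was the most opposed (r = -0.77). Over the named features compared, the 95th percentile of r was 0.86 with eIF-4E-1, 0.66 with feature 3570 and 0.53 with feature 427. High r values were thus more common for eIF-4E-1 in general. Without those slides eIF-4A-III was at -0.65, and the value of eIF-4A-3 is not given here.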

How the data were processed

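The authors scanned 2-colour cDNA arrays with a GenePix scanner, subtracted background from median intensities and scaled the ratios in Acuity to a mean of 1. The deposited values are log2 ratios of Cy3 (chilled) over Cy5 (control). The mean ratio of a deposited column lies between 1.09 and 14.5, and the highest belong to the turned slide, which reaches 2.08 after turning. No intensities were used, so signal over background is not given, and precision is limited by the 10 slides. All 20 columns were mapped by their titles.

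Duplicate spots were averaged, then replicates. limma 3.58.1 in R 4.3.3 fitted a mean per time point to the 5926 features with values in all 10 samples (5 residual degrees of freedom), with Benjamini-Hochberg adjustment at 0.05 over all features of a time point. The fit was tested on simulated data first. The methods call the replicates independent without saying which plants were pooled, so p-values measure the spread between these samples. Of 6080 features, 4172 had 1 gene, 97 several and 1811 none, and 710 had a gene name, taken from the annotation of assembly ASM3414082v1. Lists were word patterns over symbols and synonyms, as the annotation used has no descriptions, so no elongation factor or tRNA synthetase was found by name. Homonyms were removed, 11 further genes were added after the annotation was seen, and the study's listed genes were matched by EST. Named are all features of both genes, the eIF4 family, the highest and lowest of each pattern list at each time and the 5 features most like each member, and other genes were picked after their values were seen. The members and lists were chosen with earlier results of these data known. Alternatives were centring, single spot sets, linear averaging, the deposited sign at 2 h, the column with the conflicting label left out, leaving out each replicate, a replicate block, robust estimation, complete features, spots kept apart and other fold rules.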

Additional observations from a re-analysis of the deposited data

Results flagged for a closer look

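In 6 of the 37 listed features both slides of one time point lay above 0 and both of another below. The share of all features with such a reversal was not counted, so nothing is read from this number. The differences given here were not tested. QM1, a ribosomal protein of the large subunit, was higher at 6 h than at 0.5 h by 1.797 (means of 0.79 and -1.01). RPL3 was higher at 24 h than at 0.5 h by 0.98, RPS7 by 0.89 for the same times, and RPL30 was higher at 12 h than at 0.5 h by 0.82. The gene with an RNA recognition motif was higher at 24 h than at 2 h by 1.15, and by 1.08 without the turned slide of replicate 2. DRB1, a binder of double-stranded RNA, was higher at 2 h than at 6 h by 1.18. Its slides at 2 h were at 0.01 in replicate 1 and 2.07 in the turned replicate 2, and without the latter the difference was 0.15. The slides of DRB1 at 0.5 h, where no slide was turned, were at 1.23 and 0.53, and those at 6 h at -0.10 and -0.17. Neither feature of RBP-208 nor that of eIF-4E-1 showed such a reversal.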

How the results depend on the processing

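Leaving out 1 of 2 replicates cannot move a mean by more than their SD, so those settings and the replicate block say nothing of stability, but leaving one out changed the sign of 6 member means. Of the 65 member means recomputed under the other settings, 53 moved by less than that SD and 5 changed sign: features 427 and 3570 at 2 h with the deposited sign, feature 3570 at 0.5 h and eIF-4E-1 at 2 h (-0.29) when centred, and feature 3570 at 12 h (0.027) with the second spot set. For feature 427 at 2 h the mean of 1.31 became 0.99 with slide medians set to 0, 1.14 with the first spot set, 1.48 with the second and -0.070 with the deposited sign, and at 24 h 0.30 became 0.18 centred and 0.15 with the first spot set. For feature 3570 at 0.5 h 0.05 became -0.15, 0.022 and 0.070 under centring and each spot set, and at 2 h 0.59 became 0.27 centred and -0.10 with the deposited sign. For eIF-4E-1 at 24 h -0.08 became -0.20 centred. Whether replicate numbers pair the samples across times is not settled. Deviations of same-numbered slides correlated between -0.30 and 0.34 over 10 pairs of times, above 0.1 in 5. Among 6, 12 and 24 h the values were 0.24, 0.33 and 0.34, and between 0.5 and 2 h the value was -0.30. The main fit has no term for the replicate number.

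The counts called by limma over all features (147, 15, 12, 22 and 128 from 0.5 to 24 h) depended on the setting, and the cause was not tested. Centring gave 52, 0, 7 and 8 from 0.5 to 12 h. Robust estimation gave 126 at 2 h and 40 at 12 h, and features complete in all columns gave 164 at 2 h and 3 at 6 h. Spots kept apart gave 13, 35, 5, 199 and 221, with 1 pattern-list feature called at 0.5 h. The replicate block gave 189, 2, 7 and 34 from 2 to 24 h and left the members' means as they were. The deposited sign gave 0 at 2 h. Leaving out 1 replicate, which leaves 1 slide at that time point and assumes that it varies like those of the other times, gave 11 to 69, 2 to 190, 0 to 25, 14 to 61 and 5 to 73.

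The counts by the 1.8-fold rule (691, 1019, 380, 571 and 764) became 1282, 1879, 887, 1117 and 1359 at 1.5-fold, 312, 311, 139, 217 and 305 when each replicate had to pass, 199 at 6 h with 2-fold, and 440 at 0.5 h and 394 at 2 h when centred.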
